A study of Mus musculus with 26 samples.

Results

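Bone marrow-derived mast cells (BMMCs) grown from mice with and without Prss57, the gene of the neutrophil granule protease NSP4, were compared. The comparison set 4 Prss57-/- libraries, labelled NSP4 KO BMMC-P3 replicates 1, 2, 4 and 5, against 5 wild-type libraries, labelled WT BMMC-P3 replicates 1 to 5. These are 9 of the 26 RNA sequencing libraries of the series, and all genes in the files were used. The libraries were chosen by their genotype and cell type labels and by measured values: Prss57-/- library 3 was left out because its expression profile lies far from those of all other BMMC libraries. The p-values below are for the 9 libraries as chosen and do not account for that choice.

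All BMMC libraries came from male mice and were sequenced as 1 pool in 1 run. Per the study's methods, the mutant mice carry a germline deletion of exon 2 of Prss57 and were compared with wild-type littermates. BMMCs were grown from sorted granulocyte-macrophage progenitors (GMPs) in medium with IL-3 and stem cell factor, and were followed by surface CD117 and FcεRIα. The labels do not give the age of these mice, do not explain the term P3, and do not say whether each library came from its own animal or culture, so that p-values measure the spread between libraries. The first index primer was the same in the 5 wild-type libraries and Prss57-/- library 1, and another one was used in Prss57-/- libraries 2 to 5. The other libraries of the series, 8 from GMPs and 8 from common myeloid progenitors (CMPs), came from female mice and another run, and are used below only for the genotype difference within each of these cell types.

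Mast cells store preformed mediators in secretory granules. Histamine, serotonin and positively charged proteases are held there by serglycin, a proteoglycan whose heparin or chondroitin sulfate chains carry negative charge. Cross-linking of IgE on the receptor FcεRI drives fusion of the granules with the plasma membrane. NSP4 belongs to the same protease family as neutrophil elastase, proteinase 3 and cathepsin G, which are made at the progenitor stage and packed into primary granules. The comparison asks whether mast cells that descend from progenitors without NSP4 differ in their RNA.

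The coding part of the deleted exon is shown first, since it defines the mutation. In GRCm38, exon 2 of the Prss57 transcript ENSMUST00000169684 covers bases 79788843 to 79789042 of chromosome 10, on the reverse strand. It holds the first 100 of the 852 coding bases (GENCODE M21), with the start codon in capitals.
Prss57 exon 2, coding bases, chr10:79788843-79788942, reverse strand: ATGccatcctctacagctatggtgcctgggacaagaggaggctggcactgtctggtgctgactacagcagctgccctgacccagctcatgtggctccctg

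Prss57 RNA was close to undetectable in mast cells of either genotype. The 5 wild-type libraries held 27, 2, 8, 3 and 12 Prss57 reads, and all Prss57-/- libraries held 0 reads. The wild-type mean was 0.445 ± 0.461 CPM (SD, n = 5; CPM is the count scaled to the depth of the library), and 3 counts, the floor used here, correspond to a mean of 0.120 CPM over the 4 Prss57-/- libraries. This puts Prss57 at least 3.71-fold lower without the gene's exon 2, with p = 0.0159 in a two-sided exact permutation test, which cannot go lower for 4 libraries against 5. Wild-type libraries 2 and 4 lay under or at their own floors, and without wild-type library 1 the bound was 2.09-fold (exact permutation p = 0.0286). With Prss57-/- library 3, which also held 0 reads, the bound was 3.52-fold.

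Between 21322238 and 28647216 reads fell on genes in each of the 9 libraries, and 18627626 in Prss57-/- library 3. Spearman correlations over genes were 0.984 to 0.996 between the 9 libraries, and 0.897 to 0.929 between library 3 and each of them. In a principal component analysis of all 10 libraries, the first component held 72.4% of the variance and separated library 3 from the rest. Library 3 lay below all of the other 9 in 36.8% of the 14162 genes tested and above all of them in 34.7%. Where the sign of a log2 fold change turned with library 3, that value is therefore given too, for the 10 genes of smallest p per direction, the study's mast cell panel and list members named for an unadjusted p under 0.05.

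Markers of macrophages were highest in the Prss57-/- libraries used and lowest in library 3. The summed level of 8 macrophage markers was 3013, 3502, 3128 and 3800 CPM in Prss57-/- libraries 1, 2, 4 and 5, against 2525, 2300, 2969, 2743 and 2924 CPM in wild-type libraries 1 to 5. The groups did not overlap, and library 3 was at 286 CPM. All 8 markers had a log2 fold change above 0, with a median of 0.33, and of 0.029 with library 3. None passed the test. An unadjusted p under 0.05 from edgeR was found for 5 of the 8 (62.5%), all higher, beside 4.7% of all genes. These included Cd68, a lysosomal glycoprotein of phagocytes (0.51), the mannose receptor Mrc1 (0.38), and the complement components C1qa (0.35) and C1qb (0.31). Cd68, for example, was at 327.5, 353.1, 266.0 and 412.0 CPM in the Prss57-/- libraries and at 207.0, 222.6, 271.1, 251.9 and 235.9 CPM in the wild-type libraries. Here the groups overlapped, since Prss57-/- library 4 was below wild-type library 3.

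Markers of mast cells pointed the other way. The summed level of 10 mast cell markers was 50720, 45120, 33320 and 37270 CPM in the 4 Prss57-/- libraries and 41510, 54030, 43240, 58630 and 45230 CPM in the wild-type libraries, and these ranges overlapped. Most of this sum was Tpsb2 and Cpa3. Their means were 16330 and 14440 CPM in Prss57-/- and 17920 and 17710 CPM in wild-type libraries. In library 3 the sum of the markers was 98460 CPM, the highest of the 10 libraries. All 10 markers had a log2 fold change below 0 without library 3, from -0.31 to about 0, with a median of -0.23, and with library 3 the median was 0.13. Marker RNA of both cell types thus varied between these libraries, and bulk RNA cannot tell fewer cells of a type from less RNA per cell. The part of these markers in the gene differences below was not tested.

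Summed markers of the other blood cell types overlapped between the genotypes. The 8 dendritic cell markers summed to 1330 to 2423 CPM in Prss57-/- and 1135 to 2031 CPM in wild-type libraries, with 94.4 CPM in library 3. The 9 neutrophil markers summed to 37.1 to 87.4 and 27.1 to 87.0 CPM, and Elane and Camp, which encode neutrophil elastase and cathelicidin, were under 1 CPM in all 9 libraries. The 5 basophil markers, at 1328 to 1438 against 1149 to 1872 CPM, and the 5 megakaryocyte markers, at 1449 to 1903 against 1565 to 1948 CPM, include genes that mast cells may also use. The 5 eosinophil markers summed to at most 11.4 CPM, and the B cell, T cell and erythroid markers to at most 1.81 CPM, with 0 reads of Cd79a, Ms4a1, Cd3e and Trac in the 9 libraries.

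**Figure D1:**
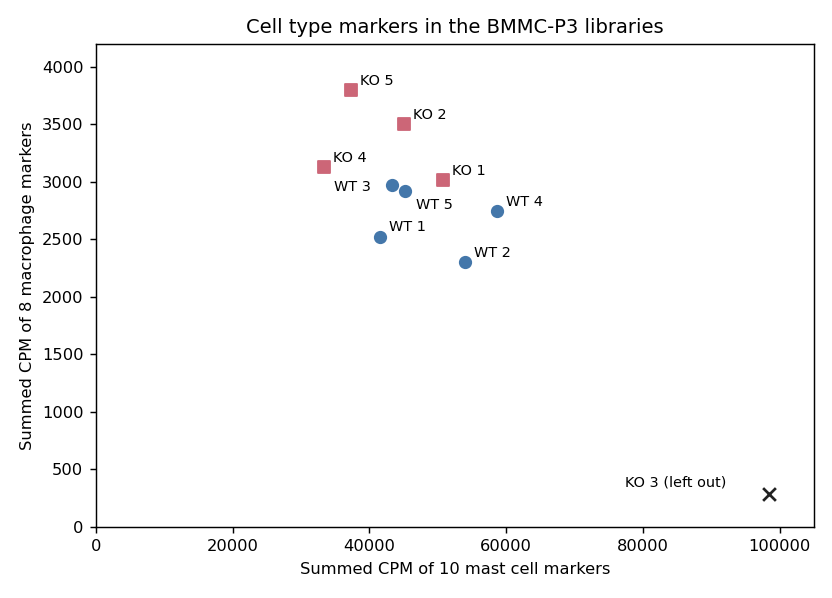
Summed CPM of 8 macrophage markers (vertical axis) against summed CPM of 10 mast cell markers (horizontal axis), 1 point per BMMC library, with wild-type libraries as circles, Prss57-/- libraries 1, 2, 4 and 5 as squares and library 3 as a cross. The 4 squares lie between 3013 and 3800 CPM on the vertical axis, above all circles, and the cross lies alone at 286 CPM and 98460 CPM. Most of the sum on the horizontal axis is Tpsb2 and Cpa3.

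No gene passed an adjusted p of 0.05 in the comparison of 4 Prss57-/- with 5 wild-type libraries (edgeR's quasi-likelihood test, 14162 genes tested, 0% called). At an unadjusted p under 0.05 there were 1031 genes (7.28%), of which 666 were higher (4.7%) and 365 lower (2.58%) in Prss57-/- BMMCs. The groups did not overlap in 337 genes (2.38%), with 196 higher (1.38%) and 141 lower (0.996%). Differences were small, with a median absolute log2 fold change of 0.0907, and 306 genes differed by more than 1.5-fold. Without Prss57-/- library 5, 550 genes had an unadjusted p under 0.05 and 0 passed. With library 3 included, 0 of 13938 genes passed (0%), and 332 had an unadjusted p under 0.05 (2.38%). The study's own criterion, an adjusted p under 0.01 and a difference of at least 2-fold, was met by 0 genes.

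The count depended on the filter and on the tool. With a minimum of 1 count in any library, edgeR called Egr2, Zfp36, Nxpe5, Adss, Rab11fip5, Clec4a1 and Ms4a6c. Their adjusted p-values in that edgeR fit were 0.0018 to 0.0151. On the same 9 libraries, limma voom called 0 genes, voom with sample quality weights called 3, and DESeq2 called 53, of which 38 were higher and 15 lower in Prss57-/- BMMCs. The groups did not overlap in 47 of those 53, beside 2.38% of all genes tested. The 53 were called for their difference in these same libraries, so this is a description. Their adjusted p-values in the reported edgeR fit were 0.0923 to 0.535. Library 3 lay below all 9 other libraries in 35 of the 38 higher genes, beside 36.8% of all genes tested.

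**Figure D2:**
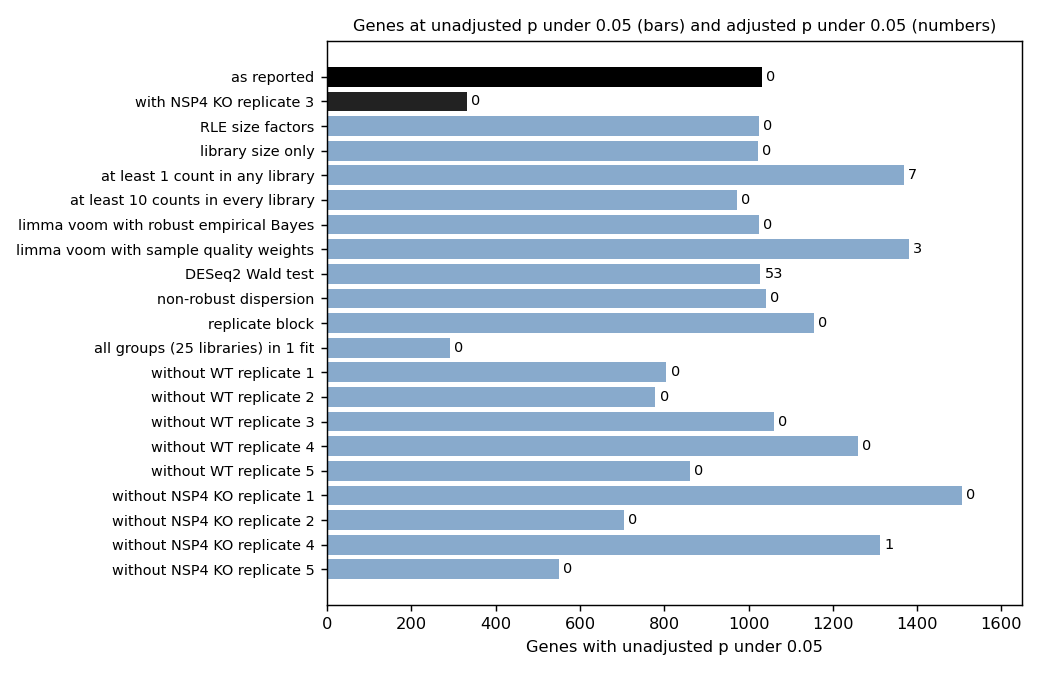
Number of genes with an unadjusted p under 0.05 (horizontal axis, bars) in the reported fit and under each alternative (vertical axis), with the number past an adjusted p of 0.05 printed at the end of each bar. The bars run from 292 genes in a fit of 25 libraries to 1506 without Prss57-/- library 1, and the printed numbers from 0 to 53.

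The genes of smallest p that were higher in Prss57-/- BMMCs included regulators of transcription and of RNA decay. Egr2, a zinc finger transcription factor of the immediate early class, was at 296.4, 369.1, 312.8 and 363.2 CPM in Prss57-/- libraries 1, 2, 4 and 5 and at 196.3, 194.5, 250, 209 and 210.9 CPM in the wild-type libraries. Every Prss57-/- library lay above every wild-type library, and library 3 was at 135.6 CPM, below all of them. The log2 fold change was 0.66 (SE 0.09, adjusted p = 0.0923 in edgeR), or 1.58-fold, and with library 3 it was 0.48. Zfp36 encodes tristetraprolin, which binds AU-rich elements and speeds the decay of cytokine RNAs. It was at 309, 334.2, 271.2 and 395.4 CPM against 188.8, 180.6, 225.2, 207.1 and 199.5 CPM, with library 3 again lowest at 134.8 CPM. Its log2 fold change was 0.71 (SE 0.10, adjusted p = 0.0923 in edgeR).

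Adss and Nxpe5 had the same adjusted p. Adss, an adenylosuccinate synthase of purine synthesis, was at 91.5, 95.7, 103.8 and 92.0 CPM in Prss57-/- and at 69.9, 65.1, 70.0, 77.6 and 73.3 CPM in wild-type libraries (log2 fold change 0.43, SE 0.06), and at 57.9 CPM in library 3. Nxpe5 was at 37.4, 39.8, 35.3 and 38.6 CPM against 20.1, 25.0, 26.2, 26.7 and 26.9 CPM (log2 fold change 0.60, SE 0.09). In library 3 it was at 2.64 CPM, so that the Prss57-/- libraries held both the highest and the lowest values. These 4 genes were the only ones with an adjusted p under 0.10 in the reported edgeR fit.

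The other 6 of the 10 higher genes had adjusted p-values of 0.241 to 0.359. The groups did not overlap in any of the 10, beside 1.38% of all genes tested that were higher without overlap. All 10 were chosen for their small p in these same libraries, so the lack of overlap is a description. Maf, a transcription factor of macrophages and T cells, was at 56.0, 52.9, 45.2 and 59.1 CPM in Prss57-/- and at 24.1, 34.4, 36.7, 39.0 and 33.4 CPM in wild-type libraries, with 12.5 CPM in library 3. The log2 fold change was 0.81 for Clec4a1, a C-type lectin, 0.86 for the membrane protein Ms4a6c, 0.60 for the protein kinase C isoform Prkch, and 0.50 for Rab11fip5, an effector of the recycling GTPase Rab11. Library 3 was below all 9 libraries in these as well, at 2.09 CPM for Clec4a1, 1.21 CPM for Ms4a6c, 0.385 CPM for Prkch and 10.0 CPM for Rab11fip5. Narf, a prelamin A-binding protein, was the exception. It was at 54.7, 51.5, 49.4 and 54.4 CPM against 37.8, 36.3, 37.8, 45.5 and 42.2 CPM, and library 3, at 66.0 CPM, lay above all of them.

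The log2 fold change was 0.39 to 0.86 in the 10 higher genes and -0.28 to -0.99 in the 10 lower ones. Scin encodes adseverin, a calcium-dependent actin-severing protein, and was at 771.9, 760.2, 874.4 and 782.1 CPM in Prss57-/- against 1147, 976, 918.3, 1039 and 1041 CPM in wild-type libraries. The groups did not overlap, the log2 fold change was -0.36 (SE 0.08, adjusted p = 0.377 in edgeR), and library 3 was at 3514 CPM. Suox, the sulfite oxidase of mitochondria, was at 60.6, 64.4, 60.4 and 56.4 CPM against 78.5, 76.3, 68.2, 74.9 and 72.4 CPM, with 311.9 CPM in library 3. For both genes the sign of the difference turned with library 3 in the fit, to 0.39 for Scin and 0.58 for Suox. The same held for Cd96, an immunoglobulin family receptor (-0.41 without and 0.58 with library 3), and for Phlda1 (-0.34 and 0.23). Bzw2 (-0.34 and 0.08), Tnfaip8 (-0.28 and 0.04) and Tasp1, the protease that cleaves MLL proteins (-0.31 and 0.09), also turned. Zcchc10 (-0.30 and -0.23), Nbea, which encodes the membrane trafficking protein neurobeachin (-0.90 and -0.47), and Palm (-0.99 and -0.86) did not. These 10 lower genes had adjusted p-values of 0.359 to 0.377 in edgeR. They too were chosen for their small p, so their lack of overlap is a description, beside 0.996% of all genes tested.

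**Figure D3:**
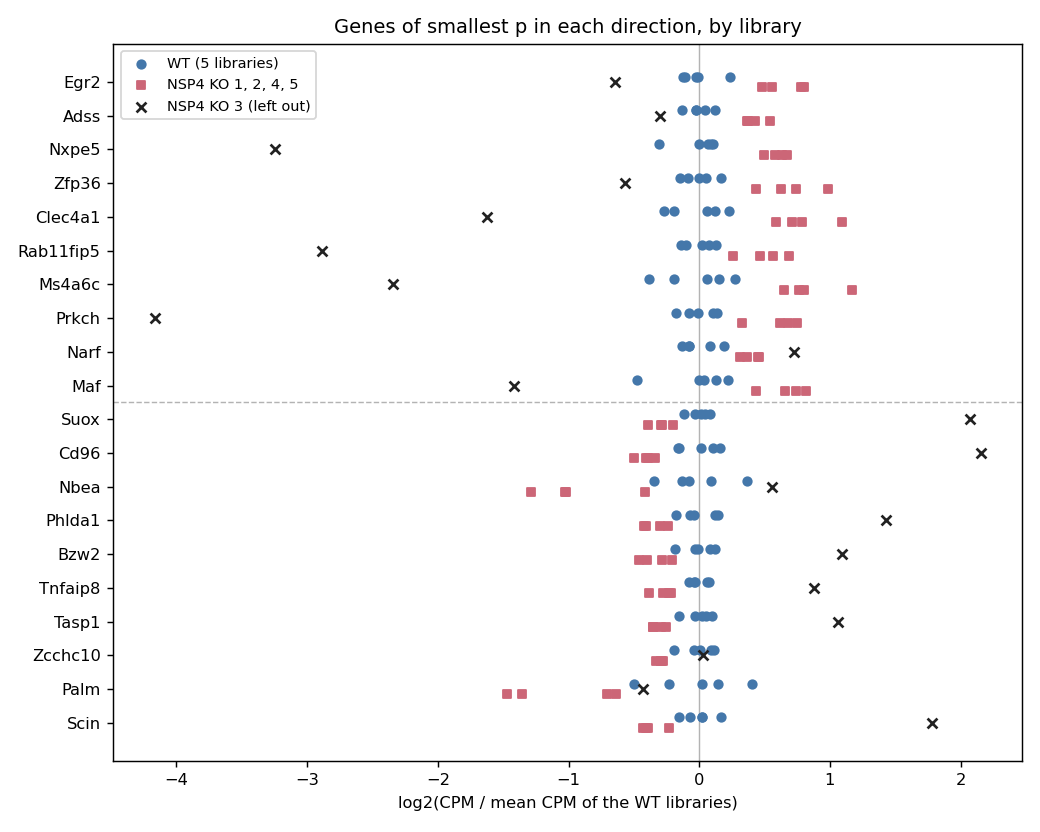
The 10 genes of smallest p that were higher and the 10 that were lower in Prss57-/- BMMCs (vertical axis), each library drawn as the log2 ratio of its CPM to the mean CPM of the wild-type libraries (horizontal axis). Wild-type libraries are circles, Prss57-/- libraries 1, 2, 4 and 5 squares and library 3 a cross, and the circles and squares of a gene do not overlap, while the cross lies left of both for 9 of the 10 higher genes. The genes were chosen for their small p in these same libraries, so the lack of overlap is a description.

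Only Prss57-/- library 1 shares the first index primer with the wild-type libraries, so the part of the primer in these differences was not tested. Without library 1, the primer and the genotype cannot be told apart. That fit had 1506 genes at an unadjusted p under 0.05, beside 1031 with library 1, and the reason for the rise was not tested. Over all genes tested, library 3 was below all 9 libraries in 36.8% and above all in 34.7%. Among the 666 higher genes at an unadjusted p under 0.05, it was below all 9 in 480 (72.1%) and above all in 84 (12.6%). Among the 365 lower genes it was above all 9 in 223 (61.1%) and below all in 48 (13.2%). The genes that were higher in the 4 Prss57-/- libraries were thus mostly low in the Prss57-/- library left out, and the lower ones mostly high.

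Promoters are shown for Egr2 and Zfp36, and for Cpa3 as a mast cell gene with a GATA motif. Of the 10 higher genes, 8 had a promoter window, and 2 of these, Egr2 and Zfp36, held a CArG box. This is the binding motif of serum response factor known from immediate early genes. Each window is the 250 bases before the start of a RefSeq transcript in GRCm38.p6, read 5′ to 3′ in the direction of the gene, with the motif in capitals.
Egr2, chr10:67537316-67537565, forward strand: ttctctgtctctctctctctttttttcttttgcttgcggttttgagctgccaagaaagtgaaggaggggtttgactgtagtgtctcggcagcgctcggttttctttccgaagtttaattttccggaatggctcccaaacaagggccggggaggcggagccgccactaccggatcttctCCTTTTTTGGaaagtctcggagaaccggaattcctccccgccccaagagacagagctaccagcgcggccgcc
Zfp36, chr7:28379229-28379478, reverse strand: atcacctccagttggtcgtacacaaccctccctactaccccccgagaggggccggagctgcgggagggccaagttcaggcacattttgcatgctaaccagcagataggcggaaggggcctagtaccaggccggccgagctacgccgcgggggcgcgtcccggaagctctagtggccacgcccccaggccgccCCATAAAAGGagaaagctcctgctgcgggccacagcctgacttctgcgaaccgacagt
Cpa3, chr3:20242182-20242431, reverse strand: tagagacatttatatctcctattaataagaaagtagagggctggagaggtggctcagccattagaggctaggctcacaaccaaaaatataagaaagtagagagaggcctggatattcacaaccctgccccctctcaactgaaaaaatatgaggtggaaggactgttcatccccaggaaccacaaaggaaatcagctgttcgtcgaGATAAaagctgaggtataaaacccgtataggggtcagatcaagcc
A CArG box was found, on either strand, in 2 of the 8 higher genes with a window (Egr2 and Zfp36), in 0 of the 8 lower genes with a window, and in 439 of all 27025 genes (1.62%). GATAA, or its reverse complement TTATC, was found in 5 of the 9 mast cell markers with a window and in 6883 of all genes (25.5%). A match describes the letters of a window and is not a measured site. The higher and lower genes were chosen for their small p in these data, so the counts are a description and were not tested.

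Other immediate early genes did not all go with Egr2 and Zfp36. Of 24 tested genes of the immediate early and stress response, 4 (16.7%) had an unadjusted p under 0.05, all higher, beside 4.7% of all genes, and 0 passed the test. Egr2 is 1 of the 4 and was already named for its small p. Besides Egr2 these were the MAP kinase phosphatases Dusp2 (log2 fold change 0.56) and Dusp1 (0.43) and the transcription factor Atf3 (0.38). Egr1, at 1663 CPM in Prss57-/- and 1621 CPM in wild-type BMMCs on average, had a log2 fold change of 0.04, and the median of the list was -0.04.

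RNAs of the granule proteases were lower on average, but none passed the test. Of 12 tested proteases, 9 had a log2 fold change below 0, with a median of -0.26 beside -0.01 over all genes. The chymase family members Mcpt1 (-0.52), Mcpt2 (-0.45) and Mcpt4 (-0.37, and 0.93 with library 3) had an unadjusted p under 0.05. With library 3 the median was 0.04. Over all genes, 4.7% were higher and 2.58% lower at that limit. Of the proteins that share primary granules with NSP4, the proteases cathepsin G (Ctsg, -0.37) and proteinase 3 (Prtn3, -0.46) and the peroxidase Mpo (-1.77) were tested, and none had an unadjusted p under 0.05. For Mpo and Prtn3 the difference rested on wild-type library 1. Mpo was at 41.2 CPM there, while wild-type libraries 2 to 5 held 0.995 to 4.01 CPM and the Prss57-/- libraries 1.31 to 5.14 CPM. Prtn3 was at 11.5 CPM there, while wild-type libraries 2 to 5 held 2.46 to 5.199 CPM and the Prss57-/- libraries 2.71 to 6.10 CPM. Cpa3, the mast cell carboxypeptidase, was at 14000, 14210, 14760 and 14800 CPM in the Prss57-/- libraries and at 14800, 16210, 15540, 22870 and 19140 CPM in the wild-type libraries. The highest Prss57-/- value and the lowest wild-type value were the same to 4 digits (log2 fold change -0.29, SE 0.15, adjusted p = 0.717 in edgeR). The exact two-sided permutation test gave an unadjusted p = 0.0159 for Cpa3, the lowest it can give for 4 libraries against 5. Library 3 had 40670 CPM, and with it the log2 fold change was 0.15.

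Tpsb2 and Cma1 varied widely within each genotype. Tpsb2, a tryptase, was at 22680, 19440, 9621 and 13570 CPM in Prss57-/- and at 13760, 22360, 16000, 22930 and 14570 CPM in wild-type libraries, overlapping ranges (log2 fold change -0.13, SE 0.26; exact permutation p = 0.619). Cma1, a chymase, was at 3431, 2643, 1710 and 1580 CPM against 3197, 3877, 2526, 2160 and 2496 CPM (log2 fold change -0.28, SE 0.25; exact permutation p = 0.349). Library 3 had 14650 CPM of Cma1, more than any other library, and with it the log2 fold change was 0.75.

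Of the genes for histamine and serotonin, Hdc and Slc18a2 differed in mean by less than the SD of the wild-type libraries. Hdc, the histidine decarboxylase that makes histamine, was at 310.4, 336.4, 303.4 and 312.3 CPM in Prss57-/- and at 331.6, 380.5, 280.2, 391.2 and 313.0 CPM in wild-type libraries, within the spread of the wild-type group (log2 fold change -0.10, SE 0.10; exact permutation p = 0.397). Slc18a2, the vesicular transporter that loads histamine and serotonin into granules, was at 610.4, 550.7, 511.3 and 509.8 CPM against 551.3, 695.8, 569.5, 789.5 and 602.6 CPM (log2 fold change -0.23, SE 0.11; exact permutation p = 0.111), and with library 3 the log2 fold change was 0.27. Of the 13 tested genes of this list, Maob, a monoamine oxidase, had an unadjusted p under 0.05 (-0.34, and 0.20 with library 3), and the list's median was -0.10. This was 7.69% of the list, beside 7.28% of all genes.

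Serglycin RNA did not overlap between the genotypes. Srgn, which encodes the core protein, was at 1491, 1544, 1627 and 1424 CPM in Prss57-/- and at 2189, 1763, 1785, 1858 and 1815 CPM in wild-type libraries, and every Prss57-/- library lay below every wild-type library. Groups did not overlap in 2.38% of all genes tested, and 0.996% of all genes were lower without overlap. The log2 fold change of Srgn was -0.31 (SE 0.09, adjusted p = 0.535 in edgeR and 0.0482 in DESeq2). The exact two-sided permutation test gave an unadjusted p = 0.0159 for Srgn. This is the lowest it can give for 4 libraries against 5, so it restates the lack of overlap. Library 3 had 4869 CPM, and with it the log2 fold change was 0.22. Ndst2, the sulfotransferase needed for heparin in mast cells, was at 136.2, 138.7, 147.6 and 124.9 CPM against 160.2, 151.3, 138.5, 147.6 and 139.5 CPM (log2 fold change -0.11, SE 0.07; exact permutation p = 0.127), and with library 3 the log2 fold change was 0.62. The whole list of serglycin, heparin and heparan sulfate genes, Srgn included, was evenly split, with 15 of 30 tested genes on either side of 0. At an unadjusted p under 0.05, heparanase Hpse (0.41), Xylt2 (0.30) and Ndst1 (0.15) were higher, and Srgn, Papss2 (-0.26) and Hs3st1 (-0.23) were lower. With library 3, Papss2 was at 0.37 and Hs3st1 at 0.60. Of the 30 genes, 20.0% had an unadjusted p under 0.05, beside 7.28% of all genes. Of 15 chondroitin sulfate genes, Chsy1 (6.67%) had such a p (-0.19, and 0.14 with library 3).

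Genes of the IgE receptor and of exocytosis differed by little. Of 26 genes of FcεRI and its proximal signalling, the receptor subunits Fcer1a (log2 fold change -0.30) and Ms4a2 (-0.28) and the kinase Lyn (-0.12) were lower and the kinase Syk (0.18) higher at an unadjusted p under 0.05, with a median of -0.05. With library 3, Fcer1a had a log2 fold change of 0.13 and Ms4a2 of 0.036. Fcer1a was at 2768, 2352, 2081 and 2054 CPM in Prss57-/- and at 2585, 2947, 2561, 3429 and 2768 CPM in wild-type libraries, and these ranges overlapped. Of 24 genes of granule docking and exocytosis, the small GTPase Rab37 had such a p (-0.25, and 0.23 with library 3), and the median was -0.03. Such a p was found for 15.4% of the FcεRI list and 4.17% of the exocytosis list, beside 7.28% of all genes. The receptor for stem cell factor, Kit, was at 3498, 2308, 1365 and 1682 CPM against 2234, 3628, 2285, 2413 and 1942 CPM, overlapping ranges.

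Lysosomal genes gave no call. Of 30 tested genes of the lysosome and granule membrane, 23 had a log2 fold change above 0, with a median of 0.12, and 6 (20.0%) had an unadjusted p under 0.05, all higher, beside 4.7% of all genes. These were the cathepsins Ctsb (0.36) and Ctss (0.33), the glycosaminoglycan-degrading enzymes Galns (0.28), Idua (0.20) and Gusb (0.19), and the proton pump subunit Atp6v0a1 (0.24). With library 3 the median was about 0, at -0.0068. Macrophages also express these genes at high levels. The summed macrophage markers were higher in the same libraries, and their part in the lysosomal values was not tested.

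The cholesterol synthesis list had a median above 0 with and without library 3. Of 23 tested genes of cholesterol synthesis and uptake, 22 had a log2 fold change above 0 (median 0.085, and 0.31 with library 3). An unadjusted p under 0.05 was found for 6 (26.1%), all higher, beside 4.7% of all genes. These included the synthesis enzymes Dhcr7 (0.44), Tm7sf2 (0.43), Mvd (0.37) and Hsd17b7 (0.30), and Insig1, which holds back the sterol sensor SCAP (0.32). Hsd17b7 was at 8.16, 7.44, 7.41 and 8.06 CPM in Prss57-/- and at 6.42, 6.21, 7.00, 6.28 and 5.52 CPM in wild-type libraries, without overlap, and library 3 was at 8.14 CPM, within the Prss57-/- range. None passed the test over all genes.

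Of 23 tested genes of glycolysis and hypoxia, 15 had a log2 fold change above 0 and 8 below 0, with a median of 0.07 and, with library 3, of 0.12. At an unadjusted p under 0.05, 5 were higher and 0 lower, beside 4.7% and 2.58% of all genes, and none passed the test. Pfkl, the liver-type phosphofructokinase, was at 116.7, 132.8, 120.7 and 128.6 CPM in Prss57-/- and at 98.1, 94.7, 103.2, 108.6 and 102.1 CPM in wild-type libraries, without overlap (log2 fold change 0.30, SE 0.06, adjusted p = 0.359 in edgeR). Library 3 was at 115.7 CPM, between the groups. The other 4 were the aldolase Aldoc (0.40), Pdk1, a kinase that inhibits pyruvate dehydrogenase (0.28), the lactate exporter Slc16a3 (0.26) and Ankrd37 (0.60). Ldha, a subunit of lactate dehydrogenase, had a log2 fold change of -0.01.

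Genes of inflammation and of myeloid identity gave single differences. Of 22 interferon-stimulated genes, 18 had a log2 fold change above 0, and Cxcl10 (0.87), Oas3 (0.84), Ifit1 (0.61) and Stat2 (0.17) had an unadjusted p under 0.05. Of 19 cytokines and chemokines, Cxcl2 (0.67), Il1b (0.45) and Ccl3 (0.42) were higher at that limit, and of 13 genes of leukotrienes and prostaglandins only Ptgs2, the inducible cyclooxygenase (0.63). Of 31 transcription factors of mast cells and progenitors, Tfeb (0.46), Irf8 (0.42), Cebpd (0.32) and Lmo2 (0.27) were higher and Gata1 (-0.29, and 0.44 with library 3) lower. Among 22 receptors, Csf3r (0.50) was higher and Il18r1 (-0.42, and 0.63 with library 3) and Il3ra (-0.18) lower, and of 10 genes of MHC class II, the transactivator Ciita (0.58) was higher. No member of these lists passed the test over all genes. At an unadjusted p under 0.05 in either direction were 18.2% of the interferon, 15.8% of the cytokine and 7.69% of the leukotriene list. For transcription factors, receptors and MHC class II the shares were 16.1%, 13.6% and 10.0%, beside 7.28% of all genes. Cxcl10, Oas3 and Ifit1 were of low level, at means of 0.48, 1.67 and 1.315 CPM in Prss57-/- and 0.25, 0.94 and 0.861 CPM in wild-type BMMCs.

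All 30 genes of DNA replication and mitosis had a log2 fold change below 0, with a median of -0.32, but none had an unadjusted p under 0.05. Top2a, the topoisomerase of dividing cells, was at 107.6, 123.0, 172.9 and 90.0 CPM in Prss57-/- and at 260.7, 130.7, 166.0, 73.0 and 149.9 CPM in wild-type libraries. Wild-type library 1 was the highest and wild-type library 4 the lowest of the 9. Without wild-type library 1 the median of the list was -0.06, and without wild-type library 4 it was -0.50.

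**Figure D4:**
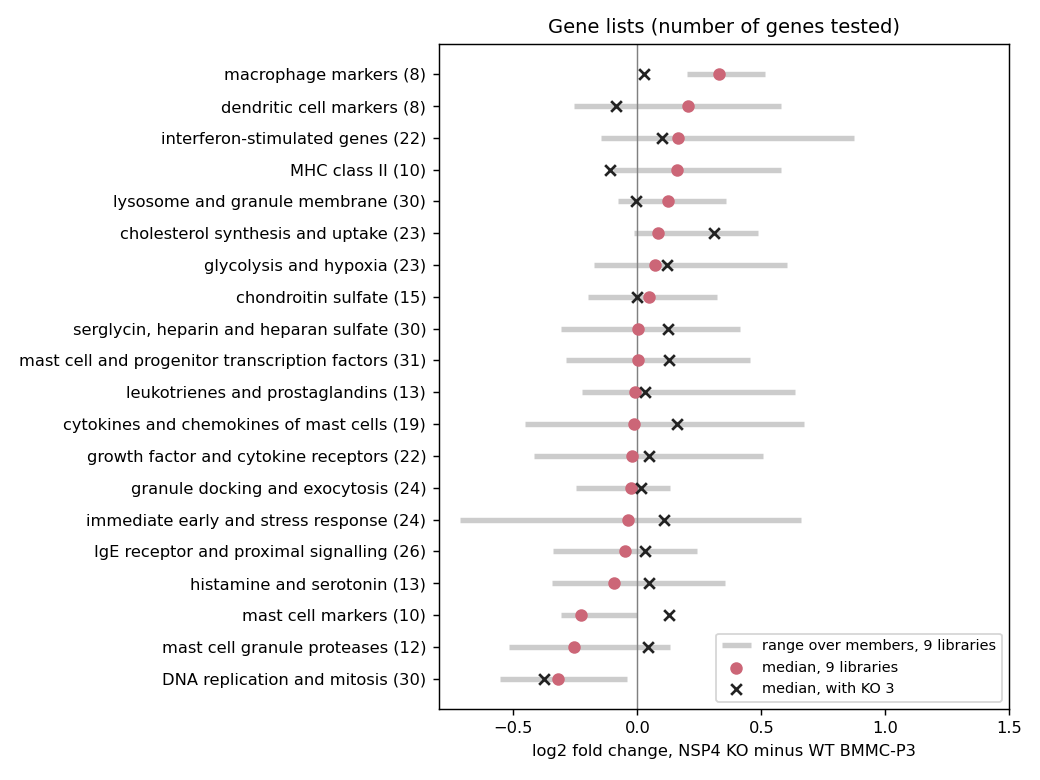
Log2 fold change of Prss57-/- minus wild-type BMMCs (horizontal axis) for each gene list (vertical axis, number of genes tested in brackets), with the median over the 9 libraries as a point, the range over members as a grey bar and the median with library 3 as a cross. Mast cell markers lie at -0.23 without and 0.13 with library 3, and cholesterol genes at 0.085 and 0.31.

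Palm, which lies next to the 5′ end of Prss57, was at a lower level in Prss57-/- cells of all 3 types. It encodes paralemmin, a lipid-anchored protein of the plasma membrane, and lies at bases 79793572 to 79820896 of chromosome 10, 2611 bases from Prss57. In BMMCs, Palm was at 3.47, 3.77, 6.20 and 5.91 CPM in Prss57-/- and at 10.6, 6.82, 9.79, 8.22 and 12.8 CPM in wild-type libraries, without overlap, and at 7.15 CPM in library 3, inside the wild-type range. The log2 fold change was -0.99 (SE 0.22, unadjusted p = 0.00104 and adjusted p = 0.377 in edgeR). In GMPs, Palm was at 167.7, 165.9, 156.8 and 134.9 CPM in Prss57-/- and at 266.2, 345.8, 311.5 and 313.4 CPM in wild-type libraries (log2 fold change -0.98, adjusted p = 0.0311 in edgeR). In CMPs it was at 54.6, 27.2, 41.2 and 40.7 CPM against 80.5, 80.8, 97.2 and 91.8 CPM (log2 fold change -1.10, unadjusted p = 0.000465 and adjusted p = 1.00 in edgeR). The genotype difference of Palm in BMMCs minus that in GMPs was -0.01 on the log2 scale (SE 0.24, unadjusted p = 0.969). Among the genes tested in BMMCs with edgeR, Palm was the only one with an unadjusted p under 0.05 in all 3 cell types. Prss57 had too few reads in BMMCs to be among them.

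**Figure D5:**
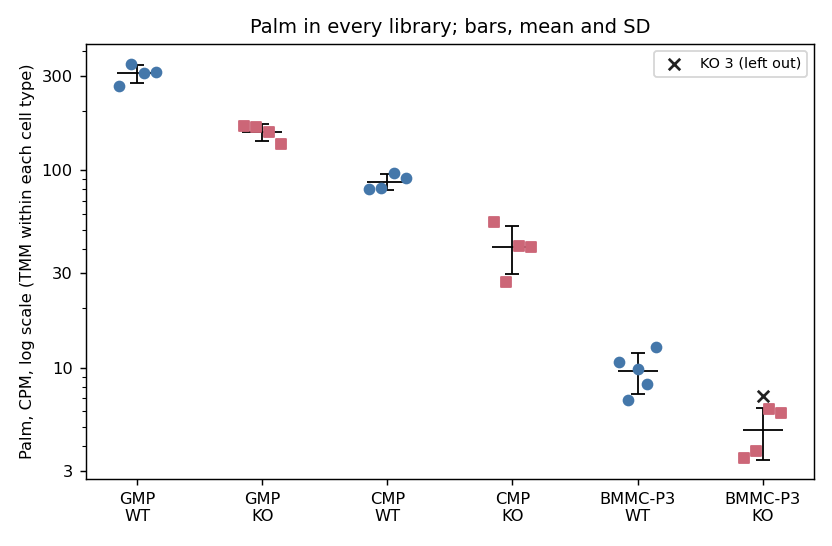
Palm in CPM on a log scale (vertical axis) in every library of GMPs, CMPs and BMMC-P3 by genotype (horizontal axis), with wild-type libraries as circles, Prss57-/- libraries as squares, library 3 as a cross, and the mean with its SD (library 3 left out) as a black bar. Squares lie below circles in each cell type, at 134.9 to 167.7 against 266.2 to 345.8 CPM in GMPs.

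The other tested genes within 50 kb of Prss57 did not follow Palm in BMMCs. The log2 fold change was -0.16 for Hcn2, 0.11 for Polrmt and -0.02 for Rnf126. Fstl3, which overlaps Prss57 on the opposite strand, was under 1 CPM in all 9 libraries with a log2 fold change of 0.38 (SE 0.39). In GMPs it was -0.97 (unadjusted p = 0.000511) and in CMPs -1.34 (unadjusted p = 0.00207). Reads of overlapping genes cannot be told apart where counting does not use the strand, so Fstl3 is uncertain. Over chromosome 10 as a whole, 57 of 682 tested genes (8.36%) had an unadjusted p under 0.05 in BMMCs, beside 7.28% over all genes.

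The progenitors showed few genotype differences. An adjusted p of 0.05 was passed by 2 of 14689 genes in GMPs, Prss57 and Palm (0.0136%), and by 1 of 14916 in CMPs, Prss57 (0.0067%). Unadjusted p-values under 0.05 were found for 119 genes in GMPs (0.81%) and 76 in CMPs (0.51%). Of the 666 genes higher in Prss57-/- BMMCs at that limit, 582 were tested in GMPs and 58.2% of them were higher there, beside 50.9% of all genes. In CMPs it was 53.8% of 584, beside 56.8% of all genes. Of the 365 lower genes, 54.5% of 332 were lower in GMPs, beside 49.1% of all genes, and 35.3% of 334 in CMPs, beside 43.2%.

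Whether the genotype difference in BMMCs departed from that in GMPs was tested as an interaction over 17 libraries. It was significant for 0 of 15621 genes in edgeR (0%), with 486 genes at an unadjusted p under 0.05 (3.11%) and a smallest adjusted p of 0.871. Of the 10 higher and 10 lower genes named above, 7 had an unadjusted p under 0.05 in edgeR's interaction test. These genes were chosen for their difference in BMMCs, so the following values are a description. The difference between the genotype effects was -0.58 on the log2 scale for Scin, 0.72 for Ms4a6c, -0.35 for Bzw2, 0.53 for Zfp36, -0.33 for Suox, 0.44 for Narf and -0.32 for Zcchc10. Cell type, sex and sequencing run cannot be told apart in this test.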

How the data were processed

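RNA of BMMCs was sequenced with a stranded total RNA kit and single-end reads. The authors aligned reads to GRCm38 with GSNAP and deposited counts of unique reads in exons. Whether counting used the strand is not given in the sources used here. The authors also deposited normalized RPKM, used here only as another scale for Prss57.

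Counts were tested in R 4.3.3 with edgeR 4.0.16 (TMM, filterByExpr, robust quasi-likelihood, Benjamini-Hochberg over all genes tested) at an adjusted p under 0.05. GMPs and CMPs were fitted alone, and BMMCs with GMPs for the interaction. CPM are TMM-scaled, and those of Prss57-/- library 3 come from the scaling over 10 libraries. Fold changes are Prss57-/- minus wild-type on the log2 scale. Exact permutation tests on CPM were run in Python 3.11.15 with scipy 1.17.1. Scripts were tested on simulated data.

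Named genes were Prss57 and tested genes within 50 kb, the 10 genes of smallest p per direction, the study's mast cell RNA panel, and the genes of highest level in each list. List members at an unadjusted p under 0.05 were named after their values were seen. The libraries, gene lists and comparisons were chosen with earlier results of these data known, so lists are described and not tested. Alternatives were other scalings (RLE, library size), filters (minimum of 1 count in 1 library, or of 10 in all), non-robust dispersion, limma 3.58.1 voom with and without quality weights, DESeq2 1.42.0, a replicate block, 25 libraries in 1 fit, each library left out, and library 3 included.

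The floor of 3 counts per library covers counting error only, since no molecular identifiers were used. Positions are those of GENCODE M21, which held 52403 of the 52636 genes, and promoters those of RefSeq. No pair of BMMC libraries agreed within sampling noise (smallest chi-square per degree of freedom 7.8).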

Additional observations from a re-analysis of the deposited data

Results flagged for a closer look

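In 5 of the 189 groups of libraries examined (2.65%), 1 library stood apart from the rest of its group by Dixon's criterion, which chance meets in about 1 group in 20. In wild-type library 1, Nxpe5 was at 20.13 CPM, below the other wild-type libraries at 24.96 to 26.92. In the same library Srgn was at 2189 CPM, above the others at 1763 to 1858, and Rnf126 was at 49.57 CPM, above the others at 33.02 to 37.13. In wild-type library 3, Atp6v0a1, a proton pump subunit, was at 220.1 CPM beside 194.8 to 199.7. In Prss57-/- library 5, the mannose receptor Mrc1 was at 901.2 CPM beside 591.0 to 614.4 CPM. Without wild-type library 1, the log2 fold change of Nxpe5 was 0.53 and that of Srgn -0.25.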

How the results depend on the processing

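No gene was called with RLE factors (1025 at an unadjusted p under 0.05), library size (1022), a minimum of 10 counts (973), non-robust dispersion (1042), limma voom (1025), 25 libraries in 1 fit (292) or library 3 (332). Called genes numbered 7 with a minimum of 1 count, 3 with voom and sample quality weights and 53 with DESeq2, which called 21 of 31 named genes. Leaving out each library gave 0 to 1 called genes (F7, log2 fold change 0.69, adjusted p = 0.0097 in edgeR, without Prss57-/- library 4) and 550 genes (without Prss57-/- library 5) to 1506 (without Prss57-/- library 1) at an unadjusted p under 0.05. The interaction with GMPs called 0 genes under all alternatives run, with 324 to 830 at an unadjusted p under 0.05.

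With library 3, log2 fold changes turned for Suox (0.58), Cd96 (0.58), Phlda1 (0.23), Bzw2 (0.084), Tnfaip8 (0.040), Tasp1 (0.085), Scin (0.39), Cma1 (0.75), Cpa3 (0.15), Slc18a2 (0.27), Srgn (0.22) and Ndst2 (0.62). With it, list medians moved to 0.044 (granule proteases), 0.12 (heparin), 0.030 (IgE receptor), 0.015 (exocytosis), -0.0068 (lysosome), 0.16 (cytokines), 0.13 (transcription factors), 0.31 (cholesterol), 0.12 (glycolysis), 0.029 (macrophage markers) and 0.13 (mast cell markers). With quality weights, Tpsb2 (0.00051), Hdc (0.0054) and Rnf126 (0.067) turned sign at values near 0. Leaving out 1 library gave -0.12 to 0.083 for Rnf126 and -0.33 to 0.048 for Tpsb2, and list medians of -0.073 to -0.00034 (exocytosis), -0.13 to 0.039 (receptors) and -0.064 to 0.034 (leukotrienes).

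With the replicate number as a block, 0 genes were called and 1156 had an unadjusted p under 0.05, and the block changed no other call. Libraries of the same number correlated in their deviations from the group means by -0.0826 to 0.212 (4 pairs, mean 0.049). Pairs of different number ranged from -0.407 to 0.532 (16 pairs, mean -0.011). With 4 pairs inside that range, this cannot decide whether libraries of the same number share an origin. The block leaves wild-type library 3 without a partner. Depth limits Prss57 and Fstl3, at a mean under 1 CPM. The causes of these changes were not tested.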

Other observations

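Genes that differed by more than 2-fold were few and of low level. There were 27, of which 20 had an unadjusted p under 0.05 in edgeR, 16 higher and 4 lower in Prss57-/- BMMCs, and all 20 were under 5 CPM on average in both groups. These genes were named after their values were seen. Slc15a2, a peptide transporter, was at 0.857, 3.28, 1.84 and 2.03 CPM in the Prss57-/- libraries and at 0.452, 0, 0.377, 0 and 0 CPM in the wild-type libraries, and library 3 had the highest value at 6.33 CPM. Fstl1 (log2 fold change 1.65), Ms4a6b (1.40) and the scavenger receptor Stab2 (1.33) were higher, and Fst, which encodes follistatin (-1.52), Cadps2 (-1.08) and Gpm6a (-1.04) were lower. Their adjusted p-values in edgeR were 0.377 to 0.595.

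Genes called by DESeq2 and not by edgeR included, chosen after their values were seen, the membrane proteins Ms4a4a (log2 fold change 1.00) and Ms4a7 (0.76), known from macrophages, the receptor ligand Gas6 (0.64), the cathepsin Ctsk (0.65), the coagulation factor F7 (0.57) and the transcription factors Prdm1 (0.64), Pou2f2 (0.82) and Hlx (0.66). The summed macrophage markers were higher in the same libraries, and their part in these values was not tested. Igfbp5, an insulin-like growth factor binding protein, was lower (-0.46, adjusted p = 0.0224 in DESeq2 and 0.422 in edgeR).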
